A study of Mus musculus with 6 samples.

Results

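The coagulation and fibrinolysis genes described here are 9 of the 23204 genes in the count table: *F13a1*, *Serpind1*, *Pf4*, *Ppbp*, *F10*, *F7*, *Thbs1*, *Plau* and *Plaur*. They were taken by symbol, and all 9 had a row. They were chosen with their values in wild-type and mutant osteoclasts already known. Their differences between genotypes are therefore given as a description, with no test, and only the difference between naming batches, defined below, is tested for them.

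Clotting is a chain of serine proteases in which factor VII, bound to tissue factor, activates factor X, and factor X makes thrombin. Thrombin cuts fibrinogen to fibrin, factor XIII crosslinks the fibrin, and serpins such as heparin cofactor II inhibit thrombin. Urokinase, held at the cell surface by its receptor, turns plasminogen into plasmin, which dissolves fibrin. Most of the circulating factors are made in the liver, while macrophages are a known source of factor XIII A, urokinase, the urokinase receptor and thrombospondin-1. Platelet factor 4 and pro-platelet basic protein are chemokines stored in platelet granules.

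RNA was sequenced from osteoclasts, the bone-resorbing cells of the monocyte lineage, grown from bone marrow of C57BL/6 mice in the growth factor M-CSF and then in M-CSF with RANKL, the cytokine of osteoclast differentiation. There were 3 wild-type libraries and 3 labelled Tet2Rank–/–; Tet3aRank+/–, read here as loss of both *Tet2* copies and 1 *Tet3* copy. The labels do not explain the word Rank in these names, and those used here name no Cre line, age or pooling of animals. Mice of both sexes are named for each genotype, but the columns of the count table could not be tied to a sex. TET2 and TET3 oxidise methylated cytosine, and the series title asks what TET deletion does to DNA methylation in osteoclasts. No methylation data were analysed here.

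Libraries go by the first number of their column names: 1, 4 and 6 were wild type, and 2, 3 and 5 were labelled mutant and are called mutant below. The names of libraries 5 and 6 carry a second number, and this split is called the naming batch. Total counts ran from 8794973 to 14267135. *Tet2* stood at 77.3 CPM ± 4.90 (SD, n = 3) in wild type and 52.0 CPM ± 6.32 (SD, n = 3) in mutant libraries without overlap, and *Tet3* at 131 CPM ± 12.4 (SD, n = 3) and 153 CPM ± 11.4 (SD, n = 3), so the labelled loss of a *Tet3* copy did not show as a lower count. CPM is the usual count over the library total, here scaled by TMM. All 10 listed osteoclast markers were detected in every library, at a summed 15140 to 39700 CPM in wild type and 2966 to 12370 CPM in mutant libraries. The 10 macrophage markers summed to 5810 to 7311 CPM and 9022 to 9651 CPM. The osteoclast sum was thus lower and the macrophage sum higher in every mutant library. By gene, 7 of the 10 osteoclast markers were lower and 6 of the 10 macrophage markers higher without overlap. *Csf1r*, the most abundant macrophage marker, overlapped, with means of 2908 and 3154 CPM. edgeR called 0 of either list with genotype alone, and 7 and 5 with naming batch in the fit. The part that this shift in marker sums had in the values below was not tested, and in bulk RNA fewer cells of a type and less RNA per cell cannot be told apart. Across all 14040 genes tested, 10 (0.0712%) passed an adjusted p of 0.05 between genotypes in edgeR, and 1219 (8.68%) did once the naming batch entered the model. The wild-type and mutant libraries did not overlap for 1392 genes higher in mutant (9.91%) and for 2377 lower (16.9%). Since the 9 genes were selected on this contrast, nothing is read from their own counts against these shares.

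Of the 9 genes, 6 had a fitted fold change above 0 and 3 below, with a median of 0.54 on the log2 scale, beside 6567 above and 7473 below with a median of -0.03 over all genes tested. *F13a1*, *Pf4* and *Plaur* were higher in all 3 mutant libraries than in any wild-type library, and *Serpind1* was lower in all 3. The genotypes overlapped for *Thbs1*, *Ppbp*, *F10*, *F7* and *Plau*. All 9 passed the filter on low counts. The sign of the difference was the same among the 4 libraries with one number in their names and between the 2 with a second number for 9 of 9 genes, although it was near 0 in one of these batches for *Plau*, *F10* and *Ppbp*. Both differences are parts of the contrast that chose the genes. The share of all genes with the same sign was not computed, so nothing is read from this count.

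**Figure D1:**
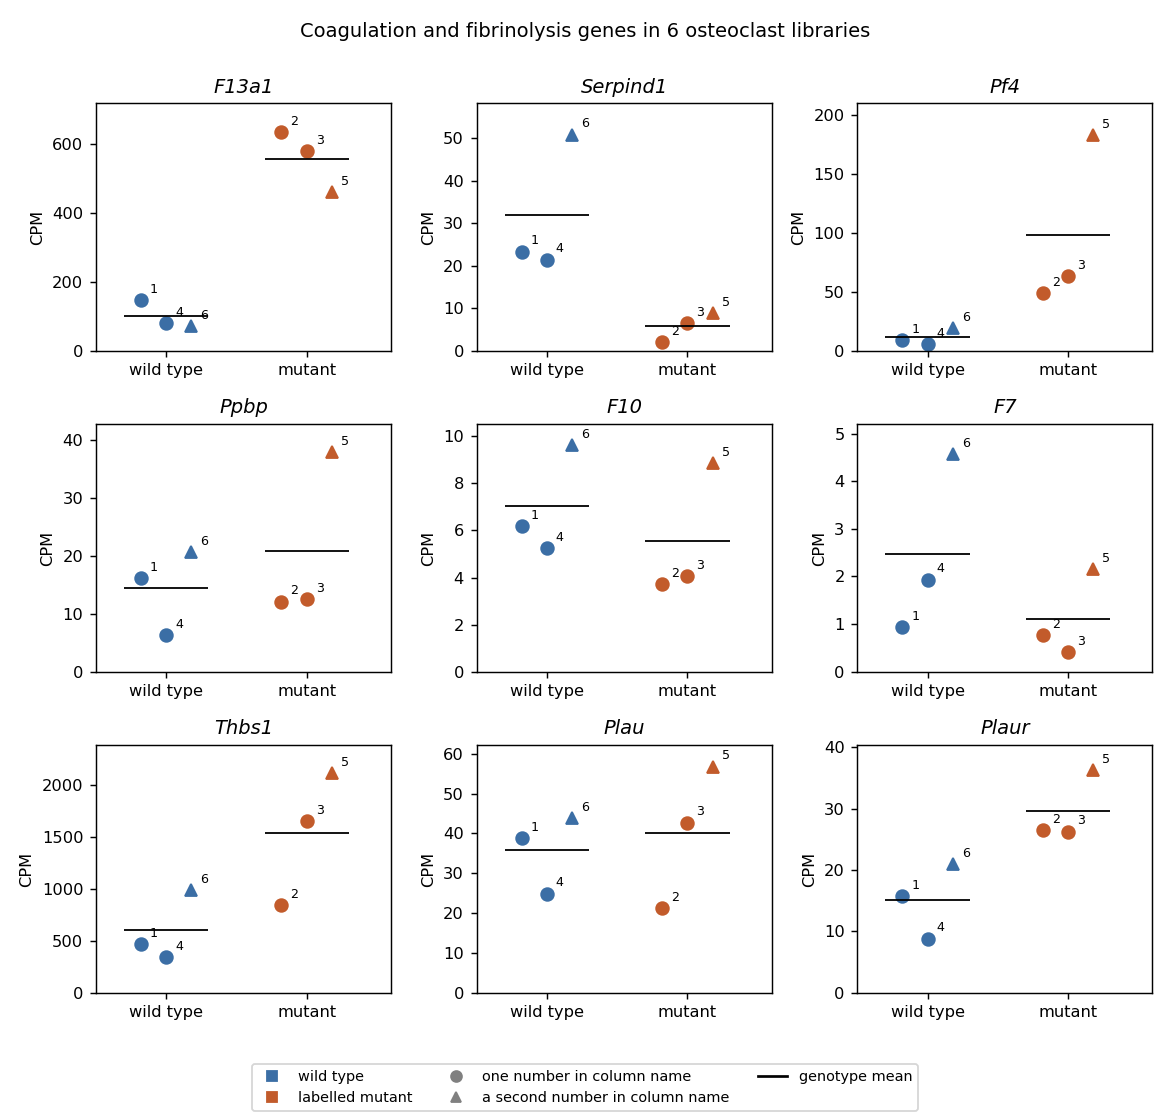
CPM of the 9 genes (vertical axes, each from 0) in the 3 wild-type and 3 mutant libraries, with library numbers beside the points, lines at the genotype means, and triangles for libraries 5 and 6. *F13a1*, *Pf4* and *Plaur* lie higher and *Serpind1* lower in all 3 mutant libraries, and the other 5 genes overlap.

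The stretches of 250 bases before the start sites of 4 of the genes are shown because the study is about enzymes that act on methylated CG, and because these genes had the largest differences or, for *Ppbp*, lie beside one of them. Capitals mark each CG, the pair of bases at which mammalian DNA is mostly methylated. The sequences are from RefSeq on GRCm38.p6, written 5′ to 3′ on the strand of the gene. The *F13a1* window is chr13:37050245-37050494 on the minus strand, and the others lie on the plus strand, at chr16:17331121-17331370 for *Serpind1*, chr5:90772185-90772434 for *Pf4* and chr5:90768268-90768517 for *Ppbp*.
F13a1: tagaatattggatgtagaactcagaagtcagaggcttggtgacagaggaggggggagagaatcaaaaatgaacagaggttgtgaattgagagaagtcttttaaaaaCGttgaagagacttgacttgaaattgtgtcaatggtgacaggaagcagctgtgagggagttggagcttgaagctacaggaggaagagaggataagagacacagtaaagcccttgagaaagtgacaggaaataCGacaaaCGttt
Serpind1: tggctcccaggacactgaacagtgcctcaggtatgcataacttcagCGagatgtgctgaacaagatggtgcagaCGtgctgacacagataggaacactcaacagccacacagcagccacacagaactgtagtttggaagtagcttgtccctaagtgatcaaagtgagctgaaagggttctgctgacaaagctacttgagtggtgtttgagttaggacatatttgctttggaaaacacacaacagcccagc
Pf4: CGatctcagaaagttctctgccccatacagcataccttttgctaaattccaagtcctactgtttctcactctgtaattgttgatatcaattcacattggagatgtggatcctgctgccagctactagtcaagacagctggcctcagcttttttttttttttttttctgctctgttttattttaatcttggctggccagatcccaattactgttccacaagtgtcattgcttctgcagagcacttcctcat
Ppbp: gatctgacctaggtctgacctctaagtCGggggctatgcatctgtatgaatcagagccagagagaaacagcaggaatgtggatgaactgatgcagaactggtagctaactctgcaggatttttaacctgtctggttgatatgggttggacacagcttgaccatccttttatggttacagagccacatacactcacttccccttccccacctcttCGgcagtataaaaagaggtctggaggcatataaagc
The *Pf4* window held 1 CG, and 18.8% of the 32851 RefSeq promoter windows of this length held as few or fewer. *Ppbp* and *Serpind1* held 2 each (29.0% as few or fewer) and *F13a1* held 3 (37.8%), while the median over all windows was 6. A second *F13a1* start, at position 37049213, had 4 CG before it, as did *F10* and *F7* (44.4% as few or fewer), and *Plaur* had 6 (53.7%). RefSeq windows were matched for 7 of the 9 genes. *Plau* and *Thbs1* are named only.

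Short motifs were searched on both strands of the 8 windows matched, including that of the second *F13a1* start. GAGGAA, a core of sites of the myeloid factor PU.1, was found in the window at the *F13a1* gene start and in those of *F7* and *Pf4*, and 2 times in that of *Plaur*, against 23.3% of all windows. TGANTCA, a looser pattern than the AP-1 site, was found in the *Plaur* and *Ppbp* windows, against 6.75% of all, and the *Ppbp* match is not one of the stricter AP-1 sites. TGGAAA, the core of NFAT sites, was found in the *Serpind1* window, against 18.6% of all. AGATAA, a form of the sites bound by factors of the erythroid and megakaryocyte lineages, was in none of the 8 and in 9.99% of all. Related strings were not searched, and the *Serpind1* window holds AGATAG. The absence therefore covers AGATAA only. A match is a string of letters and shows no binding.

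*F13a1* encodes the catalytic A subunit of factor XIII, the transglutaminase that crosslinks fibrin (ENSMUSG00000039109, chromosome 13, 36867178 to 37050244, minus strand, mm10). Its level was 147, 80.3 and 72.2 CPM in wild-type libraries 1, 4 and 6 and 633, 580 and 459 CPM in mutant libraries 2, 3 and 5. The lowest mutant library was above the highest wild-type library, library 1, by more than the whole wild-type range. The means were 99.9 CPM ± 41.1 (SD, n = 3) and 557 CPM ± 89.1 (SD, n = 3), a ratio of 5.58. The fitted difference was 2.48 ± 0.31 (SE) on the log2 scale, with 2.42 among the one-number libraries and 2.67 between libraries 5 and 6. By mean CPM the gene stood at percentile 83.8 of the tested genes in wild type and 98.5 in mutant libraries. It was thus among the genes with the highest counts in the mutant cultures, with 5688 to 9043 raw counts per library.

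Among the 39 other tested genes of the pathway were *Tgm2* and *Tgm1*, transglutaminases that crosslink proteins as factor XIII A does. *Tgm2* stood at 112 CPM ± 17.8 (SD, n = 3) in wild type and 94.2 CPM ± 10.8 (SD, n = 3) in mutant libraries (log2 fold change -0.24 ± 0.15, SE; edgeR adjusted p = 0.454). *Tgm1* was at 2.77 CPM ± 0.511 (SD, n = 3) and 4.17 CPM ± 0.822 (SD, n = 3), with an edgeR adjusted p of 0.435. Its groups did not overlap, but mutant library 5, at 3.275 CPM, was barely above wild-type library 1, at 3.266 CPM. *F13b*, the carrier subunit of plasma factor XIII, had at most 1 count in a library. Neither transglutaminase passed edgeR's test, and per length *F13a1* stood above *Tgm1* in both genotypes. Per kilobase of exon *F13a1* stood at 14.8 CPM ± 6.10 (SD, n = 3) in wild type, below *Tgm2* at 24.2 CPM ± 3.86 (SD, n = 3). In mutant libraries it stood at 82.7 CPM ± 13.2 (SD, n = 3), above *Tgm2* at 20.4 CPM ± 2.35 (SD, n = 3).

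*Serpind1* encodes heparin cofactor II, a serpin that inhibits thrombin (ENSMUSG00000022766, chromosome 16, 17331371 to 17343575, plus strand). It was at 23.3, 21.5 and 50.8 CPM in wild-type libraries 1, 4 and 6 and at 2.03, 6.42 and 8.78 CPM in mutant libraries 2, 3 and 5. Every mutant library was below every wild-type library, and library 6 stood above the other wild-type libraries. The means were 31.9 CPM ± 16.5 (SD, n = 3) and 5.74 CPM ± 3.43 (SD, n = 3), so the wild-type mean was 5.55 times the mutant mean. The fitted log2 difference was -2.48 ± 0.59 (SE), with -2.41 among the one-number libraries and -2.53 between libraries 5 and 6.

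The gene lies inside the span of *Pi4ka* on the opposite strand, with 0 shared exon bases. Libraries were made with a stranded kit, but the strand setting of the counting is not given in the sources used here. *Pi4ka* had 815 to 1117 counts in wild-type and 824 to 1331 in mutant libraries, ranges that overlap. Heparin cofactor II is made mainly by the liver, and hepatocyte transcripts were near the limit of detection. The 8 hepatocyte markers summed to 9.68 to 11.5 CPM in the one-number libraries and to 0.240 and 0.0744 CPM in libraries 6 and 5. *Alb* (albumin), the most abundant of them, was listed at 0 in libraries 5 and 6 and *Ttr* (transthyretin) in libraries 1, 5 and 6. *Serpind1* was highest in library 6, where *Alb* was at 0. The part of hepatocyte RNA in the level of *Serpind1* was not tested.

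*Pf4* encodes platelet factor 4, the chemokine CXCL4, which binds heparin (ENSMUSG00000029373, chromosome 5, 90772435 to 90773383, plus strand). It was at 9.10, 5.73 and 19.3 CPM in wild-type libraries 1, 4 and 6 and at 49.1, 63.7 and 184 CPM in mutant libraries 2, 3 and 5. The genotypes did not overlap, and within each genotype the library with a second number was the highest. The means were 11.4 CPM ± 7.08 (SD, n = 3) and 98.8 CPM ± 73.8 (SD, n = 3), a ratio of 8.68. The fitted log2 difference was 3.11 ± 0.67 (SE), with 2.93 among the one-number libraries and 3.25 between libraries 5 and 6. It was 2.30 without library 5 and 3.78 without library 6, so the size, though not the direction, rested on these libraries.

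*Ppbp* encodes pro-platelet basic protein, the chemokine CXCL7, and ends 2371 bases before *Pf4* (ENSMUSG00000029372, chromosome 5, 90768518 to 90770063, plus strand). It was at 16.2, 6.35 and 20.7 CPM in wild-type libraries 1, 4 and 6 and at 12.1, 12.5 and 38.0 CPM in mutant libraries 2, 3 and 5. Mutant libraries 2 and 3 lay within the wild-type range. The means were 14.4 CPM ± 7.33 (SD, n = 3) and 20.9 CPM ± 14.9 (SD, n = 3), and the fitted log2 difference of 0.54 ± 0.60 (SE) was smaller than its error. It turned to -0.23 without library 5 and was 0.13 among the one-number libraries and 0.88 between libraries 5 and 6.

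The ratio of the 2 neighbouring chemokine genes separated the genotypes more tightly than either level. Per kilobase of exon, *Pf4* over *Ppbp* was 0.843, 1.36 and 1.40 in wild-type libraries 1, 4 and 6 and 6.09, 7.63 and 7.25 in mutant libraries 2, 3 and 5. The SDs, 0.311 around 1.20 and 0.805 around 6.99 (n = 3 each), were small beside the gap. Like the level of *Pf4* itself, this ratio is a description of the values that chose the gene. *Cxcl5*, the next gene of the cluster, lay 6893 bases from *Ppbp* and was at 1.08 CPM ± 0.888 (SD, n = 3) in wild type and 1.52 CPM ± 1.72 (SD, n = 3) in mutant libraries (edgeR adjusted p = 0.901). *Cxcl1*, *Cxcl2*, *Cxcl3* and *Cxcl15* had at most 20 counts in a library and were not tested.

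Both chemokines are classical products of megakaryocytes, the cells that shed platelets. The 12 megakaryocyte and platelet markers were all detected at low levels, at a summed 30.3, 17.8 and 39.3 CPM in wild-type libraries 1, 4 and 6 and 31.1, 28.2 and 70.3 CPM in mutant libraries 2, 3 and 5. Of the 11 tested, 10 had a fold change above 0 and 1 below, with a median of 0.63 on the log2 scale. edgeR's test called 0 of them, but it called only 0.0712% of all genes, so nothing is read from this 0. In edgeR 0 of the 11 had an unadjusted p under 0.05, beside 19.6% of all genes tested. DESeq2 called 0 of the list, beside 11.3% of all genes to which it gave an adjusted p. *Itga2b*, the platelet integrin αIIb and the most abundant of the list, was at 5.73 to 13.2 CPM in wild-type and 9.66 to 26.4 CPM in mutant libraries. *Pf4* divided by the summed markers was 0.300, 0.322 and 0.492 in wild-type libraries 1, 4 and 6 and 1.58, 2.26 and 2.61 in mutant libraries 2, 3 and 5. *Ppbp* divided by the same sum was 0.535, 0.357 and 0.527 and then 0.390, 0.444 and 0.541, with overlap. *Pf4* was higher relative to the platelet markers in every mutant library, and *Ppbp* was not. These ratios rest on a low marker sum and on the values that chose the genes, and are a description. The part of megakaryocytes or platelets in the *Pf4* difference was not tested.

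**Figure D2:**
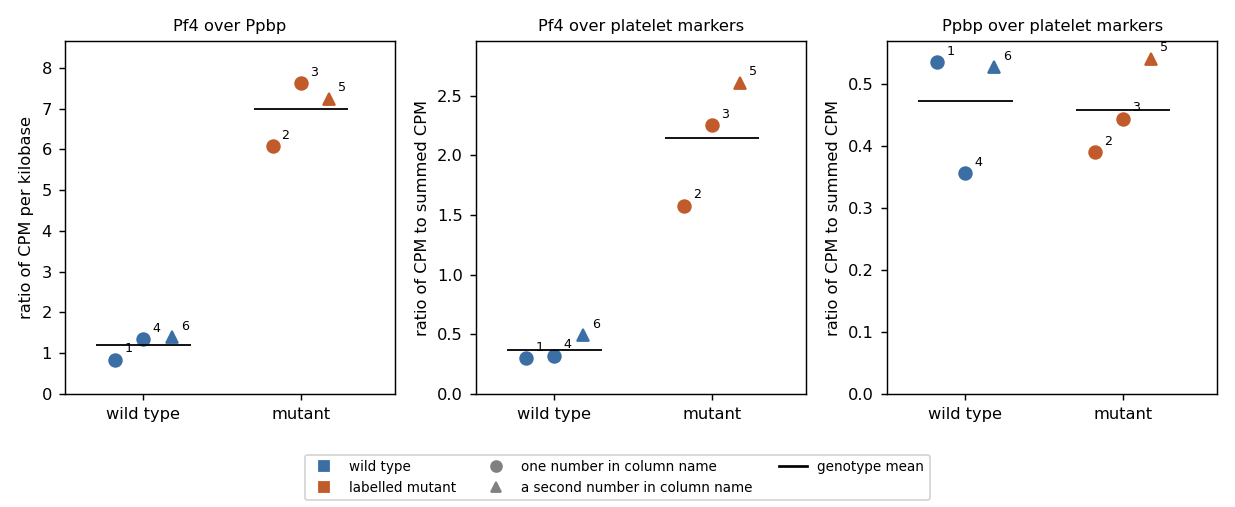
Ratio of *Pf4* to *Ppbp* in CPM per kilobase (left), and of the CPM of *Pf4* (middle) and *Ppbp* (right) to the summed CPM of 12 megakaryocyte and platelet markers, by genotype, with a line at each mean. The mutant libraries stand apart in the left and middle panels, with ratios of 6.09 to 7.63 and 1.58 to 2.61, and overlap wild type in the right one.

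*F10* and *F7* encode the proteases factor X and factor VII and lie head to tail on chromosome 8, with 1498 bases between them. *F10* (ENSMUSG00000031444, 13037308 to 13056676, plus strand) was at 6.18, 5.27 and 9.62 CPM in wild-type libraries 1, 4 and 6 and at 3.71, 4.08 and 8.86 CPM in mutant libraries 2, 3 and 5. The genotypes overlapped because library 5 lay above wild-type libraries 1 and 4. The means were 7.02 CPM ± 2.30 (SD, n = 3) and 5.55 CPM ± 2.87 (SD, n = 3), and the fitted log2 difference was -0.34 ± 0.45 (SE). It was -0.56 among the one-number libraries and -0.12 between libraries 5 and 6.

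*F7* (ENSMUSG00000031443, 13026034 to 13035809, plus strand) was near the limit of detection, with 8, 25 and 57 counts in wild-type libraries 1, 4 and 6 and 11, 4 and 29 in mutant libraries 2, 3 and 5. These counts are 0.933, 1.94 and 4.57 CPM and 0.770, 0.408 and 2.16 CPM, with overlap. The means were 2.48 CPM ± 1.88 (SD, n = 3) and 1.11 CPM ± 0.924 (SD, n = 3), and the fitted log2 difference was -1.15 ± 0.83 (SE), with -1.28 among the one-number libraries and -1.08 between libraries 5 and 6. It was -2.05 without library 5 and -0.34 without library 6. *F10* and *F7* were both highest in libraries 5 and 6, in which hepatocyte transcripts were lowest. The part of hepatocyte RNA in their levels was not tested. Per kilobase *F10* stood above *F7* in every library, by 1.43 to 4.51 times in wild type and 2.79 to 6.81 times in mutant libraries.

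Beside them in the cascade, the cofactor *F5* (factor V) was at 6.13 CPM ± 1.36 (SD, n = 3) in wild type and 13.6 CPM ± 1.51 (SD, n = 3) in mutant libraries, without overlap (log2 fold change 1.15 ± 0.24, SE; edgeR adjusted p = 0.0922, and 0.0313 in the fit that includes naming batch). *Vwf*, the carrier of factor VIII, was at 11.8 CPM ± 2.38 (SD, n = 3) and 17.8 CPM ± 8.67 (SD, n = 3), with an edgeR adjusted p of 0.468. *F3*, tissue factor, which was named after its values were seen, was at 2.81 CPM ± 2.70 (SD, n = 3) and 3.82 CPM ± 3.10 (SD, n = 3). *F9*, factor IX, also named after its values were seen, was lower in mutant libraries without overlap, on 0 to 17 counts in a library. It was at 1.37 CPM ± 0.605 (SD, n = 3) in wild type and 0.222 CPM ± 0.326 (SD, n = 3) in mutant libraries (log2 fold change -2.52 ± 1.13, SE; edgeR adjusted p = 0.290). The 9 untested coagulation factors, among them prothrombin (*F2*), factor XI (*F11*), factor XII (*F12*) and the fibrinogen chains (*Fga*, *Fgb*, *Fgg*), had at most 10 counts in a library. Transcripts of the protease that makes thrombin, factor X, were thus read alongside almost none of prothrombin or fibrinogen.

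*Thbs1* encodes thrombospondin-1, a matrix glycoprotein that binds CD36 and CD47 and activates latent TGF-β (ENSMUSG00000040152, chromosome 2, 118111876 to 118127133, plus strand). It was at 466, 344 and 989 CPM in wild-type libraries 1, 4 and 6 and at 846, 1655 and 2118 CPM in mutant libraries 2, 3 and 5. The genotypes overlapped in 1 pair, since wild-type library 6 was above mutant library 2. The means were 599 CPM ± 343 (SD, n = 3) and 1539 CPM ± 644 (SD, n = 3), a ratio of 2.57. The fitted log2 difference was 1.36 ± 0.49 (SE), with 1.63 among the one-number libraries and 1.10 between libraries 5 and 6, and it was 1.95 without library 6. *Thbs1* had the highest level per length of the 9 genes in both genotypes and stood at percentiles 98.7 and 99.7 of all tested genes by mean CPM.

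Other thrombospondin genes were lower. *Thbs2*, named after its values were seen, was at 66.1 CPM ± 33.4 (SD, n = 3) in wild type and 113 CPM ± 63.9 (SD, n = 3) in mutant libraries (edgeR adjusted p = 0.517). Per kilobase, *Thbs1* over *Thbs2* was 8.94, 10.97 and 11.2 in wild-type libraries 1, 4 and 6 and 20.2, 16.6 and 13.9 in mutant libraries 2, 3 and 5, without overlap. This ratio is a description only, since *Thbs1* was chosen on this contrast and *Thbs2* with its values seen. The level of *Thbs1* itself overlapped between genotypes. Stromal markers such as collagen genes, which fibroblasts express along with thrombospondins, summed to 935 to 2604 CPM in wild-type and 804 to 3470 CPM in mutant libraries. Libraries 1, 2 and 4 held the 3 lowest values of both this sum and *Thbs1*, and library 5 the highest. The sum is carried by *Col1a1* and *Col1a2*, which were highest in libraries 5 and 6. So were *Col3a1*, at 331.5 and 308.2 CPM, and *Pdgfrb*, at 73.5 and 62.4 CPM, of the same list. *Dcn* and *Lum* of the list were instead highest in libraries 2 and 4. *Dcn* was at 42.0 and 28.8 CPM there, and lowest in libraries 6 and 5, at 2.17 and 8.63 CPM. The part of stromal cells in the *Thbs1* difference was not tested. Of the receptors, *Cd36* was at 96.1 CPM ± 16.5 (SD, n = 3) in wild type and 236 CPM ± 43.1 (SD, n = 3) in mutant libraries, without overlap (log2 fold change 1.30 ± 0.19, SE; edgeR adjusted p = 0.0589, and 0.0163 in the fit that includes naming batch). *Cd47* was at 171 CPM ± 27.6 (SD, n = 3) and 191 CPM ± 17.4 (SD, n = 3), with an edgeR adjusted p of 0.651.

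*Plau* encodes urokinase, the plasminogen activator of migrating cells (ENSMUSG00000021822, chromosome 14, 20836660 to 20843385, plus strand). It was at 38.7, 24.9 and 43.8 CPM in wild-type libraries 1, 4 and 6 and at 21.2, 42.7 and 56.8 CPM in mutant libraries 2, 3 and 5. The ranges overlapped almost fully. The means were 35.8 CPM ± 9.80 (SD, n = 3) and 40.2 CPM ± 17.95 (SD, n = 3), and the fitted log2 difference was 0.17 ± 0.38 (SE). It turned to -0.17 without library 5 and was 0.01 among the one-number libraries and 0.38 between libraries 5 and 6, so no direction can be given for it.

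*Plaur* encodes the urokinase receptor, a GPI-anchored protein that holds urokinase at the cell surface (ENSMUSG00000046223, chromosome 7, 24462484 to 24475968, plus strand). It was at 15.8, 8.83 and 20.9 CPM in wild-type libraries 1, 4 and 6 and at 26.5, 26.3 and 36.3 CPM in mutant libraries 2, 3 and 5. The groups did not overlap, though the gap between library 6 and library 3 was smaller than the spread within wild type. The means were 15.2 CPM ± 6.07 (SD, n = 3) and 29.7 CPM ± 5.70 (SD, n = 3), a ratio of 1.96. The fitted log2 difference was 0.97 ± 0.32 (SE), with 1.10 among the one-number libraries and 0.79 between libraries 5 and 6. Per kilobase, *Plau* over *Plaur* was 2.72, 3.11 and 2.31 in wild-type libraries 1, 4 and 6 and 0.883, 1.80 and 1.73 in mutant libraries 2, 3 and 5. The ligand was the more abundant transcript in 5 of the 6 libraries, and the exception was mutant library 2.

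Among the inhibitors of fibrinolysis, *Serpine2* (protease nexin-1), a serpin that inhibits urokinase and thrombin, was at 30.6 CPM ± 13.9 (SD, n = 3) in wild type and 57.1 CPM ± 29.4 (SD, n = 3) in mutant libraries, with an edgeR adjusted p of 0.369. Plasminogen itself (*Plg*) had at most 4 counts in a library.

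Of the plasminogen-binding surface proteins, *Anxa2* (annexin A2) was at 622 CPM ± 103 (SD, n = 3) in wild type and 471 CPM ± 94.8 (SD, n = 3) in mutant libraries (edgeR adjusted p = 0.345). Its partner *S100a10*, named after its values were seen, was at 241 CPM ± 4.46 (SD, n = 3) and 135 CPM ± 7.69 (SD, n = 3), without overlap (log2 fold change -0.84 ± 0.10, SE; edgeR adjusted p = 0.0544, and 0.0146 in the fit that includes naming batch). *Lrp1*, an endocytic receptor that clears urokinase bound to its inhibitors, was at 459 CPM ± 26.7 (SD, n = 3) and 576 CPM ± 139 (SD, n = 3), with an edgeR adjusted p of 0.413.

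The thrombin receptor *F2r* (PAR1) was at 76.6, 71.5 and 132 CPM in wild-type libraries 1, 4 and 6 and at 19.1, 20.99 and 28.1 CPM in mutant libraries 2, 3 and 5. The groups were far apart, and the log2 fold change was -2.04 ± 0.29 (SE), with an edgeR adjusted p of 0.0589, or 0.0046 in the fit that includes naming batch. *F2rl2* (PAR3) was at 1.84 CPM ± 0.820 (SD, n = 3) and 2.97 CPM ± 2.59 (SD, n = 3), with an edgeR adjusted p of 0.699. Among the anticoagulant genes, *Anxa5* (annexin A5) was at 591 CPM ± 74.0 (SD, n = 3) and 625 CPM ± 49.2 (SD, n = 3), and *Pros1* (protein S) at 38.9 CPM ± 15.2 (SD, n = 3) and 63.3 CPM ± 14.1 (SD, n = 3), with edgeR adjusted p-values of 0.857 and 0.267. The cargo receptors for factors V and VIII differed by less than their spread, *Mcfd2* at 128 CPM ± 24.6 (SD, n = 3) and 131 CPM ± 24.4 (SD, n = 3), and *Lman1* at 117 CPM ± 8.26 (SD, n = 3) and 112 CPM ± 11.8 (SD, n = 3), with edgeR adjusted p-values of 0.967 and 0.866.

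The list of other pathway genes held 64 names, of which 61 were in the table and 39 were tested. The 22 not tested had at most 31 counts in a library. In edgeR's genotype test 0 were called higher and 0 lower, while 7 had an unadjusted p under 0.05, as did 19.6% of all genes tested. DESeq2 called 2 higher and 2 lower, beside 11.3% of all genes to which it gave an adjusted p, and edgeR called, in the fit that includes naming batch, 2 higher (*F5*, *Cd36*) and 3 lower (*F2r*, *S100a10* and *Vkorc1l1*, the last a vitamin K reductase named after its values were seen), beside the 8.68% of all genes that it called. By fold, 28 of the 39 lay above 0 and 11 below, with a median of 0.28 on the log2 scale. The 4 tested inhibitors of fibrinolysis and the 5 tested thrombospondin and receptor genes were all above 0, and 4 of the 7 genes of the plasminogen system were below. In the fit with genotype alone none of these classes had a member past the threshold.

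**Figure D3:**
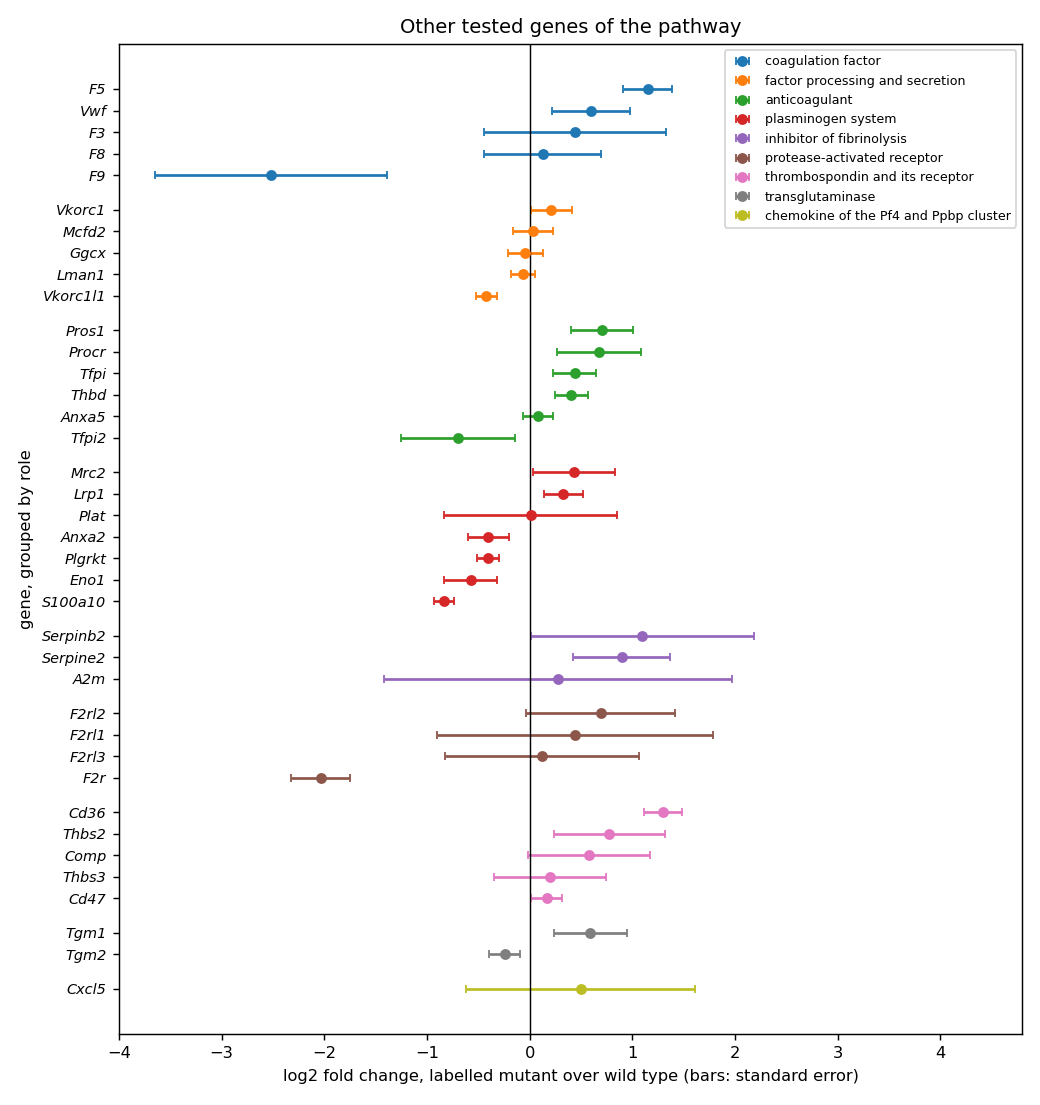
Fitted log2 fold change of mutant over wild type (horizontal axis, bars are standard errors) for the other tested pathway genes, coloured and grouped by role, with 1 of the 39 not shown. *F9* lies furthest from 0, at -2.52 with a standard error of 1.13, and rests on 0 to 17 counts in a library. *F2r* lies at -2.04, and *Cd36* and *F5* lie at 1.30 and 1.15.

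Levels between the 9 genes are comparable only per length. In wild type the order by CPM per kilobase of exon (± SD, n = 3) was *Thbs1* at 98.7 ± 56.4, *Pf4* at 15.8 ± 9.82, *Plau* at 15.1 ± 4.14, *F13a1* at 14.8 ± 6.10, *Serpind1* at 14.6 ± 7.51, *Ppbp* at 13.3 ± 6.77, *Plaur* at 5.80 ± 2.32, *F10* at 2.57 ± 0.841 and *F7* at 1.33 ± 1.01. From *Pf4* to *Ppbp* neighbours differed by less than their spread. In mutant libraries the order was *Thbs1* at 253.5 ± 106, *Pf4* at 137 ± 102, *F13a1* at 82.7 ± 13.2, *Ppbp* at 19.3 ± 13.7, *Plau* at 17.0 ± 7.59, *Plaur* at 11.3 ± 2.18, *Serpind1* at 2.62 ± 1.56, *F10* at 2.03 ± 1.05 and *F7* at 0.598 ± 0.497. *Thbs1* led and *F7* closed both orders, and the 5 genes that were level in wild type were spread from 2.62 to 137 in mutant libraries.

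**Figure D4:**
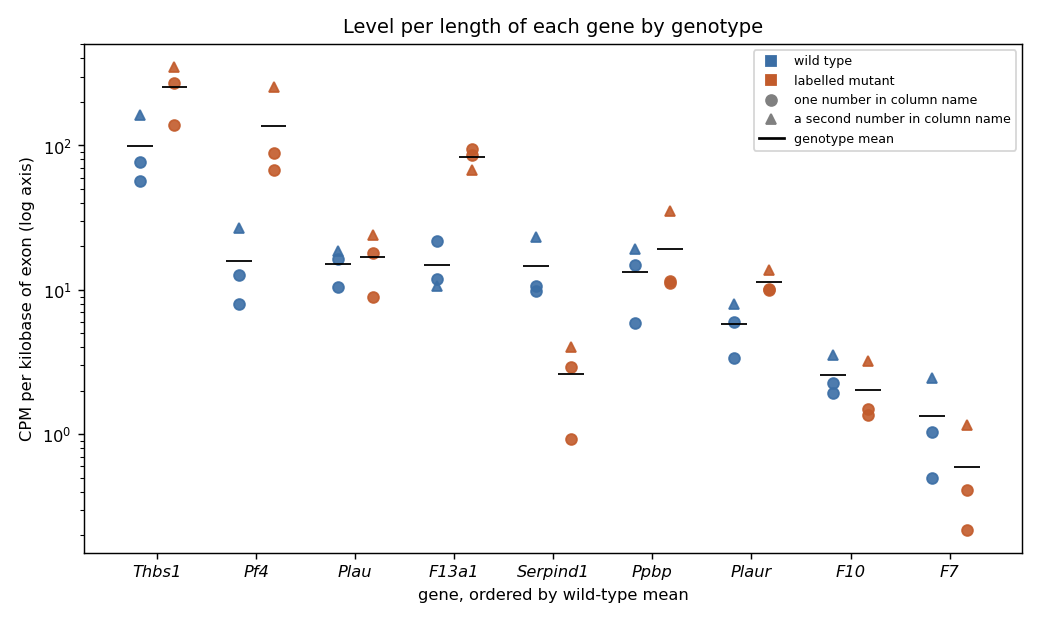
CPM per kilobase of exon (logarithmic axis) of each gene in each library, wild type beside mutant, ordered by wild-type mean, with lines at the means. *Pf4*, *Plau*, *F13a1*, *Serpind1* and *Ppbp* have wild-type means of 13.3 to 15.8 and mutant means of 2.62 to 137.

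The naming batch was a measure that did not choose the genes. With genotype in the fit, 322 of the 14040 genes (2.29%) differed between libraries 5 and 6 and the rest in edgeR. Of the 9 genes, *Pf4* passed, higher by 1.58 ± 0.19 (SE) on the log2 scale in libraries 5 and 6 (adjusted p = 0.0309). This call was lost without library 2 (0.0594), library 5 (0.296) or library 6 (0.430). The other 8 genes did not pass, with adjusted p between 0.0979 and 0.246. Their differences were 1.28 ± 0.35 (SE) for *Ppbp*, 1.73 ± 0.49 for *F7*, 0.97 ± 0.27 for *F10*, 1.15 ± 0.36 for *Serpind1*, 1.03 ± 0.29 for *Thbs1*, 0.66 ± 0.30 for *Plau*, 0.62 ± 0.23 for *Plaur* and -0.52 ± 0.24 for *F13a1*. Thus 8 of 9 lay above 0, with a median of 1.03, against a median of -0.02 over all genes. DESeq2 called 5 of the 9 in this comparison and 12% of the 15556 genes to which it gave an adjusted p. edgeR without a filter on low counts called 7 of the 9 and 12% of 23204 genes.

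The megakaryocyte and platelet markers were also higher in libraries 5 and 6, in 11 of 11 tested genes with a median of 1.05, and edgeR called 0. Of these 11 genes, 4 had an unadjusted p under 0.05 there, as did 23.9% of all genes, and DESeq2 called 1. Over all genes, edgeR called 2.29% in this comparison, and 6760 of 14040 lay above 0. The neutrophil markers were higher in 7 of 7 with a median of 1.59 and 5 called, and the osteoclast markers in 10 of 10 with a median of 1.19 and 1 called. *F13a1*, the exception among the 9, and the macrophage markers, of which 3 of 10 were above 0 with a median of -0.22, were not. The endothelial markers were lower in libraries 5 and 6 in 4 of 4 with a median of -2.81 and 1 called, and the erythroid markers in 2 of 2 tested with a median of -7.34 and 2 called. Hepatocyte markers were lower there too, with 0 of 2 tested above 0, a median of -8.32 and 1 called. The part of these cells in the batch difference was not tested.

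**Figure D5:**
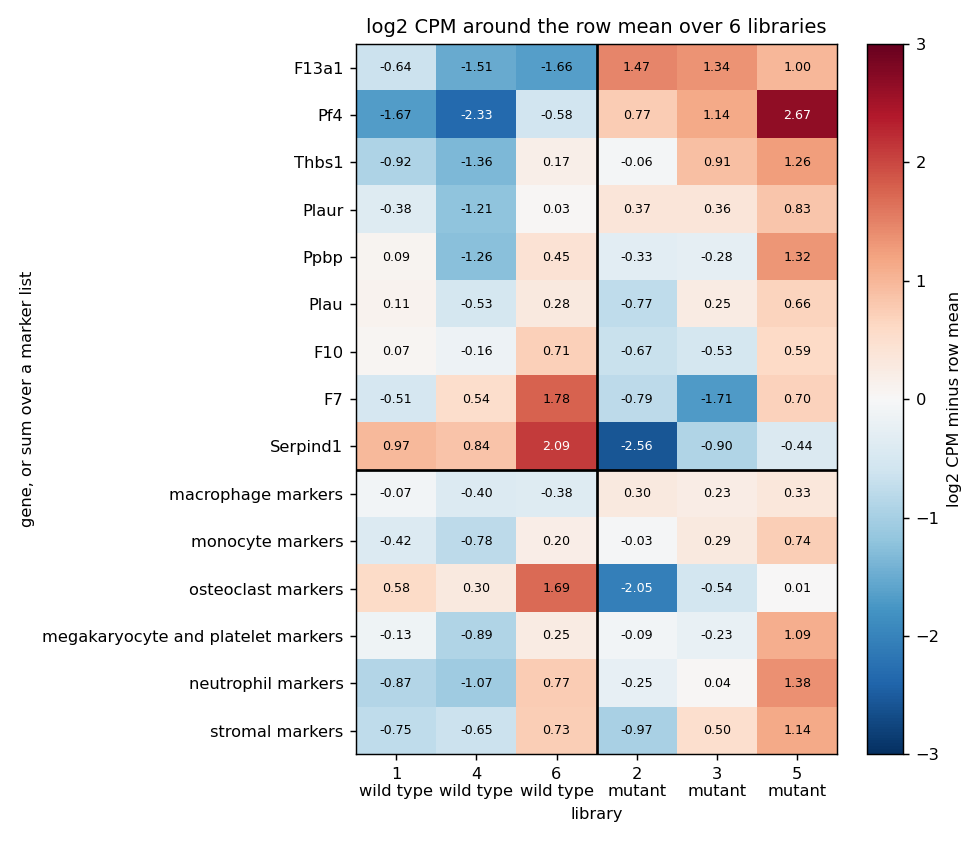
log2 CPM minus its mean over the 6 libraries (colour and printed value) for the 9 genes and for the summed CPM of 6 marker lists, wild-type libraries left of the line. *F13a1* and the macrophage sum are above 0 in libraries 2, 3 and 5 and below in 1, 4 and 6, while *Serpind1* and the osteoclast sum are above 0 in libraries 1, 4 and 6, the latter also in library 5, by 0.01.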

How the data were processed

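RNA-seq counts of mouse osteoclasts, 3 wild-type and 3 mutant libraries, were analysed. The authors deposited whole-number counts per Ensembl gene, not normalized. Per the labels' protocols, stranded mRNA libraries gave single reads of 75 bases. The submitters' processing notes list Bowtie2 2.2.3, SAMtools 0.1.19, TopHat2 2.0.13 and the build mm10. How reads were counted, with what strand setting and annotation, is not given in the sources used here. Of 23264 rows, 60 exact repeats were dropped, and 0 rows named no gene.

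After TMM scaling, counts were tested with edgeR 4.0.16 (R 4.3.3; quasi-likelihood, filterByExpr, Benjamini-Hochberg over 14040 genes, threshold 0.05), with genotype, or genotype and naming batch, as terms. The test was also run on simulated counts, drawn at the variation of the fit with naming batch. Their common biological coefficient of variation was 23.5%, below the 40.9% of the data with genotype alone. Nothing is therefore read from that run about the genotype test. DESeq2 1.42.0, other scaling, no filter, and leaving out libraries were alternatives. CPM values are TMM-scaled. Level per length used GENCODE M21 exon lengths. Identifiers matched that release in 99.8% of cases. Columns give the genotype but no replicate number. Nothing says that libraries came from separate animals, so a p-value here measures only how libraries vary, which may be technical.

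The 9 genes and all lists were chosen with earlier results of these data known. Named pathway genes were the 2 with the highest mean CPM in each role, neighbours the nearest tested gene on each side, and similar genes the 2 with the highest Pearson r among genes of at least 10 CPM on average. Markers were the 2 most abundant of a list. Any other pathway or marker gene was named with its values seen, also where this is not said beside it, as for *Serpinb2*, *A2m*, *F13b* and *Plg*. 1 gene of the pathway list is counted in its list but not reported here by name.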

Additional observations from a re-analysis of the deposited data

How the results depend on the processing

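The genotype fold changes of the 9 genes kept their direction in all but 3 of 125 alternatives: *Ppbp* ran from -0.23 to 0.93 and *Plau* from -0.17 to 0.51 on the log2 scale over the fits leaving out 1 library, while *F7* moved to -2.05 without library 5. The genes were chosen on this contrast, and the alternatives reuse the same libraries or part of them. A kept direction is therefore a description and no independent support, and its share over all genes was not computed. Among pathway genes, none of which had passed edgeR's test with genotype alone, leaving out 1 library turned 12 of 39, among them *F3* (-0.44 to 1.63), *Serpinb2* (-0.41 to 2.44), *A2m* (-0.51 to 1.27), *Mcfd2* (-0.13 to 0.22), *Lman1* (-0.15 to 0.042), *F2rl2* (-0.32 to 1.09) and *Cxcl5* (-1.03 to 1.28). The log2 ratio of *Ppbp* to platelet markers between genotypes, -0.04, ran from -0.21 to 0.059. Over all genes, 7 called higher and 3 lower became 42 and 46 with raw totals (added after seeing the data), 629 and 717 in DESeq2, 46 and 35 without a filter, 433 and 786 once the naming batch entered the model, and 1 and 0 in the one-number libraries; leaving out 1 library gave 0 to 2 and 0 to 1. In the pathway list, 0 and 0 became 1 and 2 with raw totals, 2 and 2 in DESeq2, 1 and 2 without a filter, and 2 and 3 with the batch term. The naming batch called 322 genes, 1871 in DESeq2, 2775 without a filter and 12 to 1305 leaving out 1 library; of the 9 genes it called 1, then 5, 7 and 0 to 3. The cause of these shifts was not tested. DESeq2's size factors in edgeR gave the same 7 and 3. No paired analysis was possible because the columns carry no replicate number. The common biological coefficient of variation was 40.9%, or 23.5% with the batch term, and sets the precision of 3 libraries a genotype, and *F7* rests on 4 to 57 counts.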

Other observations

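The nearest tested genes on either side were read as well, and none of those given here passed edgeR's genotype test. Beside *F13a1*, *Ly86* (MD-1, a partner of the receptor RP105), 294963 bases away, was at 88.3 CPM ± 37.3 (SD, n = 3) in wild type and 149.9 CPM ± 30.6 (SD, n = 3) in mutant libraries (edgeR adjusted p = 0.274), and *Nrn1* on the other side was at 1.35 CPM ± 0.457 (SD, n = 3) and 0.357 CPM ± 0.133 (SD, n = 3), with an adjusted p of 0.160. Beside *Serpind1*, *Snap29* was at 67.1 CPM ± 20.6 (SD, n = 3) and 74.9 CPM ± 3.37 (SD, n = 3), and *Tmem191c* at 4.22 CPM ± 0.404 (SD, n = 3) and 4.94 CPM ± 1.76 (SD, n = 3). Beside *Thbs1*, *Rasgrp1*, a Ras activator, was at 35.6 CPM ± 16.7 (SD, n = 3) and 13.2 CPM ± 8.51 (SD, n = 3), with an edgeR adjusted p of 0.217, or 0.0226 in the fit that includes naming batch. It lay 768874 bases from *Thbs1* and was lower in every mutant library, in which *Thbs1* was mostly higher. *Gpr176*, the nearest tested gene on the other side of *Thbs1*, lay closer, at 149976 bases. *Gpr176* was at 17.9 CPM ± 7.44 (SD, n = 3) in wild type and 28.1 CPM ± 15.1 (SD, n = 3) in mutant libraries, with overlap (edgeR adjusted p = 0.559).

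Over the 6 libraries, the genes with a mean of at least 10 CPM whose log2 CPM followed a coagulation gene most closely (Pearson r across libraries, which share genotype and naming batch) were *B430306N03Rik* and *Rnf121* for *F13a1* (0.998 and 0.997), *Impad1* and *Prag1* for *Serpind1* (0.9999 and 0.9989), *Slc30a4* and *Notch1* for *Pf4* (0.998 and 0.997), *Itga2b* and *Aff1* for *Ppbp* (both 0.980), and *Uhrf1bp1l* and *Egln1* for *Thbs1* (0.995 and 0.990). *Itga2b* is itself a platelet marker, and the single one of the 12 listed that reached the minimum mean. With only 6 libraries such values are common: 740 of 9360 genes had an r above 0.95 with *Serpind1*, 198 with *F13a1*, 59 with *Pf4* and 17 with *Ppbp*. Within the 9, *F13a1* and *Serpind1* were the most opposed pair (-0.91), and *Pf4* went with *Plaur* and with *Thbs1* (0.94 each).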
